A study of Mus musculus with 12 samples.

Results

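The effect of a Nop16 guide was measured without stimulation in CH12F3-2A, a line derived from a mouse B cell lymphoma, as the difference between 3 sgNop16 and 3 sgCtr libraries. These 6 libraries are all those of the 12 in the series that were made from cells without stimulation. Of the 56941 genes in the deposited table, 16794 passed a filter on low counts and were tested. Cells of both groups were transfected by Neon electroporation with the plasmid pX459, which carries Cas9 and, here, either a guide against Nop16 or a non-targeting guide, and were then kept 72 h in puromycin. The series calls the result a knockdown. The cells described here received no stimulus. The other 6 libraries, 3 per guide, came from cells given CIT for 24 h, a mixture of anti-CD40L at 1 μg/ml, IL-4 at 20 ng/ml and TGF-β at 1 ng/ml. The study asks what NOP16 does in switching from IgM to IgA, which CIT induces in this line.

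Each group is a cell population after drug selection, for which no cloning is described, so edited and unedited cells may be mixed. A guide against another site of Nop16 is not among the groups. The differences below are therefore differences between cells given the Nop16 guide and cells given the control guide, which cannot be assigned to Nop16 alone. The series calls the replicates biological, without saying whether each came from its own transfection. The p-values measure the spread between such replicates. In bulk RNA a fall can come from fewer cells of a kind or from less RNA per cell, and these cannot be told apart.

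NOP16 is a nucleolar protein that takes part in the assembly of the large ribosomal subunit. Unstimulated CH12F3-2A cells make IgM, present antigen on MHC class II molecules and respond to CD40 through TRAF adaptors and the transcription factor NF-κB. Targets of NF-κB in B cells include inhibitors of NF-κB itself, survival genes of the BCL2 family and chemokines.

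Levels are given as CPM, the counts of a gene relative to the scaled total of its library, in the order of libraries 1, 2 and 3. Log2 differences are sgNop16 minus sgCtr and carry the SE of the model. Adjusted p-values come from the quasi-likelihood test of edgeR over all 16794 genes, and genes with a value under 0.05 are spoken of as called. Total counts were 39690555 to 47175155 per library, and the lowest values cluster at 4, so that 1 fragment may stand for about 4 counts. The first principal component of the 6 libraries held 29.5% of the variance, with the sgNop16 libraries at 4.11, 7.78 and 10.8 and the sgCtr libraries at -13.1, 0.49 and -10.04. On this component alone sgCtr library 2 lay nearest to the sgNop16 group. The second held 24.6% and did not part the guides, with sgNop16 at 6.99, 9.77 and -5.45 and sgCtr at 2.75, -14.4 and 0.31. All 7 B cell markers were present, with a summed level of 1755 to 1801 CPM in sgCtr and 1765 to 1782 CPM in sgNop16 libraries. T cell markers summed to 6.04 to 8.11 and 6.63 to 7.35 CPM, with 4 of 9 at 0, fibroblast markers to 1.48 to 3.20 and 1.41 to 2.15 CPM, with 4 of 8 at 0, and erythroid markers to 2.21 to 3.94 and 2.11 to 3.18 CPM, with 1 of 7 at 0.

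Nop16 itself was lower with its guide, and most of its RNA remained. It was at 104, 108 and 107 CPM in sgCtr and 85.9, 82.4 and 88.6 CPM in sgNop16 libraries, a log2 difference of -0.31 ± 0.043 (adjusted p = 0.000563). The groups did not overlap. Where in Nop16 the guide cuts is not known here. RNA can still be made from edited alleles, so this level does not count edited cells.

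In all, 558 genes were called, which is 3.32% of those tested. Of these, 301 (1.79%) were higher and 257 (1.53%) lower with the Nop16 guide. Most differences were small. The median absolute log2 difference of the called genes was 0.25, and among them 71 were at least 1.5-fold higher and 30 at least 1.5-fold lower. The share called rose with abundance, from 1.39% of genes at 1 to 5 CPM to 10.3% at 100 CPM and over, where the median absolute log2 difference of called genes was 0.17. Of the called genes, 11 had at most 12 counts over the 3 sgCtr libraries and 4 at most 12 over the 3 sgNop16 libraries, and the fold of such genes is only a bound. Protein-coding genes made up 285 of those called higher and 233 of those called lower. With library totals in place of TMM scaling, 551 genes were called, and the split moved to 362 higher and 189 lower. The 3 libraries of one guide lay above the 3 of the other without overlap for 9.44% of tested genes with sgNop16 higher and for 9.4% with sgNop16 lower. Leaving out any 1 library left 352 to 389 called genes.

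**Figure D1:**
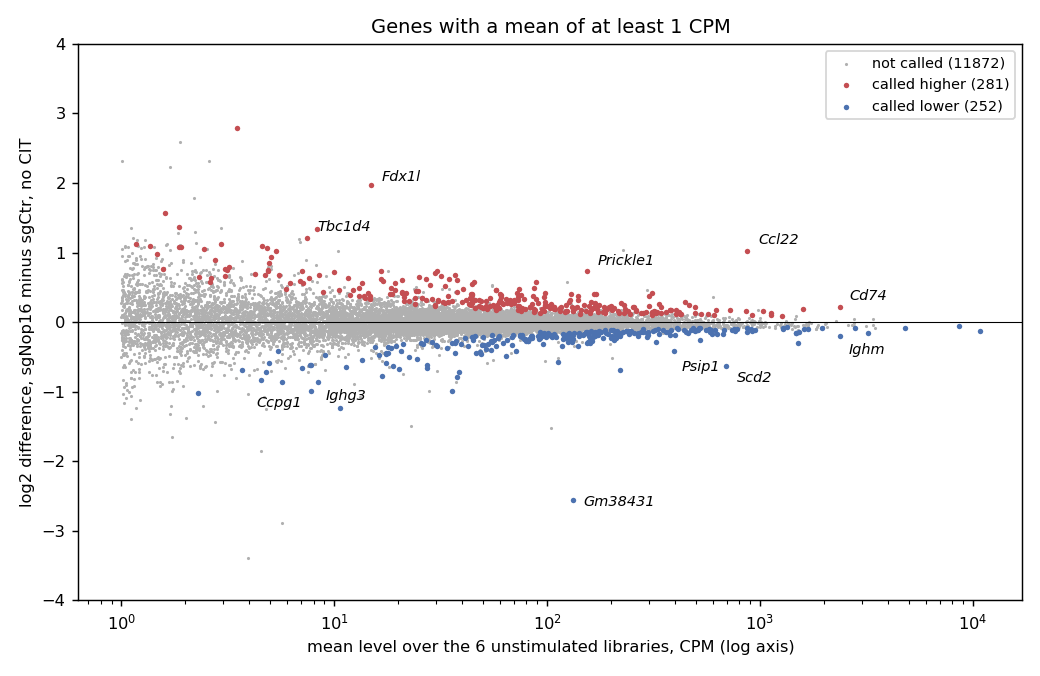
Log2 difference between sgNop16 and sgCtr cells without CIT (vertical axis) against the mean level over the 6 unstimulated libraries in CPM (log axis), for the 12405 genes with a mean of at least 1 CPM; 281 of them were called higher (red) and 252 lower (blue), and 1 gene lies beyond the axis limit of 4. Most called genes lie close to 0, and Ccl22 and Scd2 stand apart from genes of like level.

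**Figure D2:**
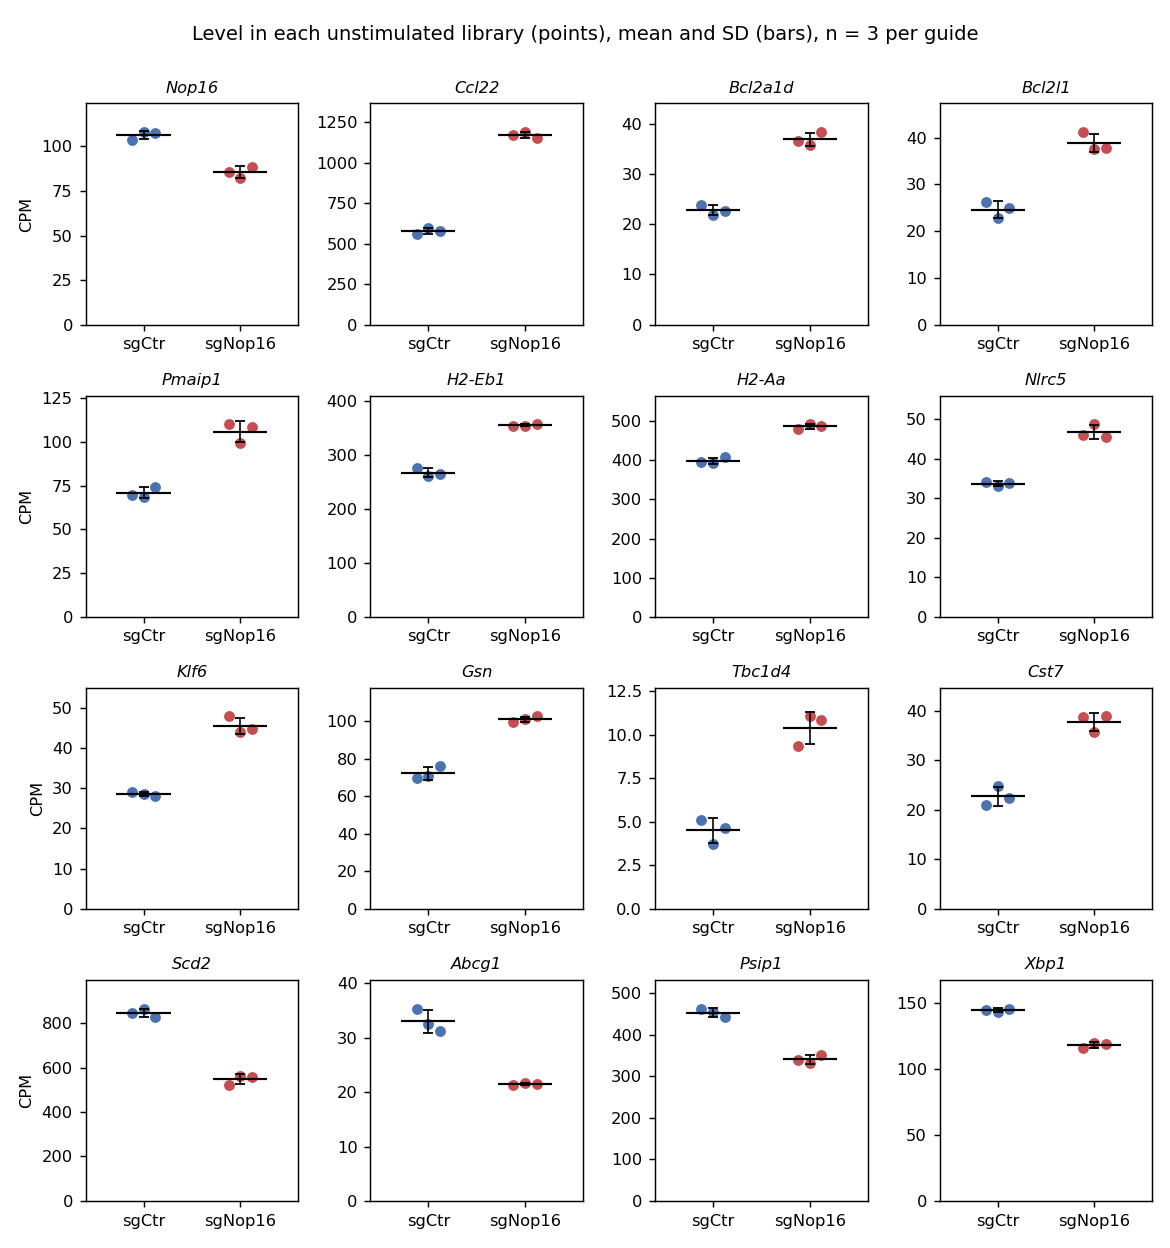
Level in CPM of 16 genes in each of the 3 sgCtr and 3 sgNop16 libraries without CIT (points), with the mean and SD (bars); each axis starts at 0. In every panel the 3 libraries of one guide lie apart from the 3 of the other, with Nop16, Scd2, Abcg1, Psip1 and Xbp1 lower and the other 11 higher in sgNop16.

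The chemokine Ccl22, which draws in cells carrying the receptor CCR4, showed the smallest p of all genes and was about 2-fold higher. It was at 559.9, 595 and 578 CPM in sgCtr and at 1169, 1188 and 1149 CPM in sgNop16 libraries, a log2 difference of 1.02 ± 0.025 (adjusted p = 8.45e-13). The libraries of each guide were within a narrow range and far from those of the other. Ccl22 was also 1 of the 2 genes called when the test asked for a change beyond 1.5-fold. The other was Tbc1d4, a GTPase-activating protein that holds back the traffic of glucose transporter vesicles, at 5.12, 3.72 and 4.66 CPM in sgCtr and 9.36, 11.04 and 10.8 CPM in sgNop16 libraries (1.21 ± 0.10, adjusted p = 6.72e-06).

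Of 12 chemokines tested, 3 were called higher (25.0%, against 1.79% of all tested genes) and none lower. The median log2 difference was 0.53 over the list against 0.00 over all tested genes. Ccl3 and Ccl4, which draw in myeloid and T cells, were the others. Ccl3 was at 6.37, 3.97 and 3.84 CPM with the control guide and 11.4, 11.1 and 13.1 CPM with the Nop16 guide (1.33 ± 0.30, adjusted p = 0.0198). Ccl4 was at 4.60, 3.34 and 2.62 against 7.60, 6.45 and 7.44 CPM (1.03 ± 0.26, adjusted p = 0.0402). Both were higher in all sgNop16 libraries, but either call ended without sgCtr library 2 or 3 or any 1 of the sgNop16 libraries, at adjusted p up to 0.0912 for Ccl3 and 0.149 for Ccl4. Only 1 of the 3 calls, that of Ccl22, was then made.

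Among 20 NF-κB subunits and inhibitors, 3 were called higher and none lower, with a median of 0.05. The inhibitor Nfkbie, which holds NF-κB dimers in the cytoplasm, was at 111, 112 and 120.4 CPM in sgCtr and 135, 143 and 139.9 CPM in sgNop16 libraries (0.28 ± 0.042, adjusted p = 0.00102). Nfkbia, which encodes the inhibitor IκBα and is itself a target of NF-κB, was at 194, 187 and 197 and 219, 228 and 214 CPM (0.20 ± 0.031, adjusted p = 0.00184). In each gene all sgNop16 libraries lay above all sgCtr libraries, by small steps. The difference of Nfkb2, the precursor of the p52 subunit, was 0.16 ± 0.032 (adjusted p = 0.0118), and this call ended without sgCtr library 2 or 3 or sgNop16 library 3 (adjusted p up to 0.0536). The promoters of both inhibitors are shown here because each holds the NF-κB consensus. They are the 120 bases before the RefSeq start on build GRCm38.p6, with the match in capitals: Nfkbia at chr12:55492648-55492767 on the minus strand and Nfkbie at chr17:45555580-45555699 on the plus strand.
Nfkbia: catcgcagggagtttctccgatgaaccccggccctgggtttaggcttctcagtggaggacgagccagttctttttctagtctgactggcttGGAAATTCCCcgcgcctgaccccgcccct
Nfkbie: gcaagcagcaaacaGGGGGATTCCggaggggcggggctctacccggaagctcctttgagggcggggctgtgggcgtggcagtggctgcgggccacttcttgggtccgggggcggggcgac

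The match began 29 bases before the start in Nfkbia and 106 before it in Nfkbie. In windows from 250 bases before to 50 after the start, searched on both strands, the consensus was present in 17.4% of the 218 called higher genes with an entry, in 16.2% of the 185 called lower and in 12.3% of the 10293 tested genes with one. None of the printed matches overlaps a match of another word searched. In the 250 bases before the start, the consensus was also present in Bcl2l1, 242 bases before a start, and in H2-Aa, 131 and 130 bases before it as overlapping matches. No match was found there for Ccl22 or Bcl2a1d, and a gene without an entry would show none either.

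Among TRAF adaptors and receptors and ligands of the TNF family, 4 of 24 were called higher and none lower. The 4 make 16.7% of the list, against 1.79% of all tested genes called higher. Cd40, the receptor for the CD40 ligand, was at 69.9, 67.3 and 67.2 CPM in sgCtr and 75.96, 84.4 and 79.95 CPM in sgNop16 libraries (0.23 ± 0.042, adjusted p = 0.00547). The costimulatory ligands Cd70 (0.56 ± 0.13, adjusted p = 0.0315) and Tnfsf9 (0.32 ± 0.070, adjusted p = 0.0174) were higher too, as was the BAFF and APRIL receptor Tnfrsf13b. The call of Cd70 ended without any 1 of the 6 libraries (adjusted p 0.0523 to 0.107). That of Tnfsf9 ended without sgCtr library 2 or 3 or sgNop16 library 2 or 3 (up to 0.0777). Leaving out a library left 1 to 3 calls in this list, with 1 left without sgCtr library 2 or sgNop16 library 2 and 2 left without sgCtr library 3 or sgNop16 library 3.

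The BCL2 family sets the threshold for apoptosis. Of its 15 tested members 6 were called higher (40.0%, against 1.79% of all tested genes) and none lower. All 6 were called in every setting in which a call of any change was tested. Both sides of the family were among them. Of the members that protect cells, Bcl2a1d was at 23.8, 21.8 and 22.7 CPM in sgCtr and 36.6, 35.9 and 38.3 CPM in sgNop16 libraries (0.70 ± 0.046, adjusted p = 4.19e-07). Bcl2l1, which encodes BCL-XL, was at 26.1, 22.7 and 24.98 and 41.1, 37.6 and 37.7 CPM (0.66 ± 0.060, adjusted p = 1.05e-05). Both differed by about 1.6-fold with no overlap.

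Bcl2a1a and Bcl2a1b, near-identical copies of Bcl2a1d between which reads can be split, differed by 0.42 ± 0.051 and 0.41 ± 0.042. The calls of these copies need not be separate observations, though the share of the list counts each. Of the members that promote apoptosis, Pmaip1, which encodes NOXA and is also a p53 target, was at 69.4, 68.6 and 74.4 CPM in sgCtr and 110.00, 99.1 and 108 CPM in sgNop16 libraries (0.58 ± 0.050, adjusted p = 6.72e-06). Bcl2l11, which encodes BIM, was at 36.3, 41.3 and 39.95 and 50.1, 49.9 and 47.4 CPM (0.33 ± 0.059, adjusted p = 0.00544). Bcl2a1a, Bcl2a1b and Bcl2l11 were named after their values were seen. The median of the list was 0.01, since 9 members were not called.

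Genes of the MHC class II pathway, which loads peptides for helper T cells, showed the largest share of calls among the 37 lists. Of 19 tested, 9 were called higher and 1 lower, against 1.79% and 1.53% of all genes, and the median log2 difference was 0.14. The β chain gene H2-Eb1 was at 277, 260.5 and 265 CPM in sgCtr and 355, 354 and 357 CPM in sgNop16 libraries (0.41 ± 0.027, adjusted p = 4.56e-07). H2-Aa, an α chain gene, was at 395, 393 and 408 and 481, 492 and 487 CPM (0.29 ± 0.020, adjusted p = 5.69e-07). The sgNop16 libraries of both genes lay within a few CPM of each other and above all sgCtr libraries.

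H2-Ab1, the partner of H2-Aa, was at 141, 140.2 and 148 against 195, 193 and 184 CPM (0.41 ± 0.034, adjusted p = 3.61e-06). The invariant chain Cd74, which guards the peptide groove, was at 2195, 2181 and 2254 against 2552, 2579.7 and 2579.9 CPM (0.22 ± 0.018, adjusted p = 4.64e-06). H2-DMb2, a chain of the peptide exchanger H2-M, was at 80.3, 78.1 and 78.02 against 93.6, 104 and 99.99 CPM (0.33 ± 0.036, adjusted p = 6.38e-05). Surface chains, chaperone and exchanger thus each rose, with no overlap between guides. The other 4 called higher were H2-DMa, H2-DMb1, Ctss and the coactivator Ciita. Of the 9, 7 to 9 were called when 1 library was left out. The protease Lgmn was the member called lower (-0.21 ± 0.052, adjusted p = 0.0335) and it kept the call without sgNop16 library 3 but lost it without any 1 of the other 5 libraries (adjusted p up to 0.152).

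Promoters of class II genes carry the Y box, whose core is CCAAT, and 3 of them are shown for this reason as the 120 bases before the RefSeq start on GRCm38.p6, with CCAAT or its reverse complement ATTGG in capitals. They are H2-Eb1 at chr17:34305747-34305866 on the plus strand, H2-Aa at chr17:34287824-34287943 on the minus strand and H2-DMb2 at chr17:34145129-34145248 on the plus strand.
H2-Eb1: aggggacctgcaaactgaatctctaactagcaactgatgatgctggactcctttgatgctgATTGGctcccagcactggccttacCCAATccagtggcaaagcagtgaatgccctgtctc
H2-Aa: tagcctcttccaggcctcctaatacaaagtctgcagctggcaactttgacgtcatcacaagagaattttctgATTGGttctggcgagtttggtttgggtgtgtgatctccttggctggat
H2-DMb2: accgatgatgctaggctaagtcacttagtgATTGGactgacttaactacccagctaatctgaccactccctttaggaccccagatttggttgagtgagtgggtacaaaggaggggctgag

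The letters began 59 and 35 bases before the start in H2-Eb1, 48 before it in H2-Aa and 90 before it in H2-DMb2. CCAAT is a short and common word. On either strand it was present in at least 1 window of 43.1% of called higher, 47.0% of called lower and 42.8% of all tested genes with an entry. A STAT word, TTC and GAA with any 4 bases between them, was present in 6.42%, 8.11% and 6.51%.

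In the MHC class I pathway 5 of 24 were called higher (20.8%, against 1.79% of all tested genes) and none lower. The median was 0.02. Nlrc5, the coactivator of class I genes, was at 34.2, 33.2 and 33.9 CPM in sgCtr and 46.00, 48.8 and 45.5 CPM in sgNop16 libraries (0.47 ± 0.044, adjusted p = 1.17e-05). Psmb9, a subunit of the immunoproteasome, was at 53.7, 51.8 and 53.3 and 61.8, 60.7 and 61.8 CPM (0.22 ± 0.042, adjusted p = 0.00903). Both were higher in all sgNop16 libraries. Exons of Psmb9 overlap Tap1, which lies on the other strand. The others were B2m, H2-D1 and Tap1, and 3 to 5 of the 5 calls were made when 1 library was left out, with 3 without sgCtr library 1 or 2 or sgNop16 library 2 or 3. Of 27 interferon response genes, 1 was called higher (3.70%, against 1.79% of all tested genes), and the list's median was -0.02. This was the restriction factor Samd9l (0.47 ± 0.092, adjusted p = 0.00923).

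Markers of other antigen-presenting cells were partly at 0. Dendritic cell markers summed to 15.7 to 16.4 CPM in sgCtr and 17.9 to 20.4 CPM in sgNop16 libraries, most of it Zbtb46 at 16.3 CPM, with 4 of 7, Itgax, Clec9a, Siglech and Cd209a, at 0. Macrophage markers summed to 7.70 to 8.90 and 9.44 to 10.9 CPM, mostly Cd68 at 7.66 CPM, with 6 of 10, Lyz2, Cd14, Fcgr1, Mertk, Cd163 and Marco, at 0. Both sums were higher in every sgNop16 library. Adgre1, the macrophage marker F4/80, was called higher with 0 counts in sgCtr and 41 in sgNop16 libraries, at least 3.39-fold above a floor of 12 counts over the group.

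Among B cell surface molecules and receptor signalling, differences went both ways. Among 22 receptor and coreceptor genes 3 were called higher (13.6%) and 2 lower (9.09%). Among 34 signalling genes 4 were called higher (11.8%) and 2 lower (5.88%). Of all tested genes 1.79% were called higher and 1.53% lower. Cd72, an inhibitory coreceptor, was at 64.7, 59.4 and 61.3 CPM in sgCtr and 84.4, 77.6 and 86.3 CPM in sgNop16 libraries (0.42 ± 0.047, adjusted p = 7.84e-05). Cd5, also inhibitory, was at 43.5, 43.8 and 43.5 and 53.4, 57.02 and 51.2 CPM (0.31 ± 0.054, adjusted p = 0.00427). The phosphatase Ptpn6, or SHP-1, which such coreceptors recruit, was at 462, 467 and 448 and 538, 543 and 523 CPM (0.22 ± 0.025, adjusted p = 8.12e-05). All 3 sgNop16 libraries exceeded all sgCtr libraries for each of these genes.

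The adaptor Blnk, which links SYK to downstream signals, was at 207, 195 and 231 against 253, 248 and 249.7 CPM (0.25 ± 0.044, adjusted p = 0.00481). Lower were Cd79b, a signalling chain of the receptor (-0.12 ± 0.030, adjusted p = 0.0345), and Ms4a1, which encodes CD20 (-0.13 ± 0.031, adjusted p = 0.0374). The call of Cd79b ended without any 1 library (adjusted p 0.0501 to 0.163), and that of Ms4a1 without any except sgNop16 library 3 (up to 0.176). Both also ended with library totals in place of TMM scaling. The 2 signalling genes called lower, Nfatc2 and Syk, were not called without any 1 library, and 2 of the 4 called higher were left without sgCtr library 1 or sgNop16 library 3.

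Costimulation and adhesion genes were called higher in 5 of 25 cases (20.0%) and lower in 1 (4.0%). Of all tested genes 1.79% were called higher and 1.53% lower. Slamf6, a self-binding receptor of lymphocytes, was at 70.8, 68.9 and 66.8 CPM in sgCtr and 85.8, 86.4 and 88.5 CPM in sgNop16 libraries (0.34 ± 0.049, adjusted p = 0.000936). Icosl, the ligand of ICOS, was at 5.19, 5.10 and 4.72 and 7.06, 8.30 and 6.78 CPM (0.56 ± 0.11, adjusted p = 0.0101), and its call ended without sgNop16 library 2 (0.053). The integrin chain Itgal (0.15 ± 0.032) lost its call without sgCtr library 1 or 3 or sgNop16 library 2 (adjusted p up to 0.0578), and without the last of these 3 of the 5 calls were left. Cd86 and Cd44 were the others.

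The surface glycoprotein Cd24a was the member called lower. It was at 1681, 1667 and 1669.8 CPM in sgCtr and 1358, 1324 and 1389 CPM in sgNop16 libraries (-0.30 ± 0.023, adjusted p = 1.86e-06), with groups far apart. Of 24 chemokine and homing receptors 3 were called higher (12.5%, against 1.79% of all tested genes). Among them Ccr7, which guides cells to lymphoid tissue, was at 113, 111 and 115 against 132, 133 and 135 CPM (0.24 ± 0.036, adjusted p = 0.00102). The sphingosine phosphate receptor S1pr3 was at 14.2, 16.1 and 17.00 against 19.4, 21.5 and 21.7 CPM (0.40 ± 0.078, adjusted p = 0.00866, and 0.0531 with only the 6 libraries compared in the fit). Of that list 1 was called lower (4.17%, against 1.53% of all tested genes). This was Itgb1, the β1 integrin chain, at 575, 566 and 562 against 475, 471 and 480.5 CPM (-0.26 ± 0.026, adjusted p = 2.94e-05).

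Among 38 cytokine receptors, JAKs and STATs 3 were called higher (7.9%) and 1 lower (2.63%), against 1.79% and 1.53% of all tested genes. The IL-5 receptor chain Il5ra was at 128, 126 and 125 CPM in sgCtr and 142, 147 and 149 CPM in sgNop16 libraries (0.21 ± 0.036, adjusted p = 0.00416). Its signalling partner Csf2rb differed by 0.21 ± 0.039 (adjusted p = 0.0063). Both chains of that receptor thus rose by a small step. No member of this list was called lower once any 1 library was left out. The cytokine Il16, a ligand of CD4, was lower (-0.39 ± 0.076, adjusted p = 0.00881) and was the only 1 of 10 cytokines called.

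Immediate early genes and DUSP phosphatases respond within minutes to receptor signals. Of 25 members 4 were called higher (16.0%, against 1.79% of all tested genes) and none lower. The median was 0.12. Klf6, a zinc finger factor, was at 28.96, 28.6 and 28.1 CPM in sgCtr and 47.9, 43.9 and 44.7 CPM in sgNop16 libraries (0.67 ± 0.061, adjusted p = 9.4e-06). Egr1 was at 22.9, 22.7 and 23.5 and 33.9, 32.8 and 32.97 CPM (0.53 ± 0.073, adjusted p = 0.000563), and Egr2 at 8.21, 8.53 and 10.5 and 14.5, 12.5 and 15.3 CPM (0.63 ± 0.11, adjusted p = 0.00275). All 3 were higher in every sgNop16 library. Zfp36l1, an mRNA decay factor, was the other, and all 4 were called in every setting in which a call of any change was tested.

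Genes of the actin cytoskeleton and microtubules were called higher in 12 of 47 cases (25.5%, against 1.79% of all tested genes) and lower in none. The median was 0.09. The actin-severing protein Gsn was at 69.4, 70.9 and 76.00 CPM in sgCtr and 99.7, 101 and 102 CPM in sgNop16 libraries (0.49 ± 0.037, adjusted p = 1.86e-06). Vim, the intermediate filament vimentin, was at 62.4, 59.4 and 64.4 and 87.2, 89.9 and 81.4 CPM (0.47 ± 0.056, adjusted p = 0.000136). Both were higher in all sgNop16 libraries. Without 1 library 8 to 11 of the 12 calls were made, with 8 without sgNop16 library 1. S100a4, a calcium-binding protein, was under 1 CPM in all libraries, and its call (1.55 ± 0.39) ended without any library except sgNop16 library 3 (adjusted p up to 0.143).

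Other large differences lay outside these groups. Prickle1, a component of planar cell polarity, was at 116, 109.7 and 119 CPM in sgCtr and 187, 198 and 192 CPM in sgNop16 libraries (0.74 ± 0.044, adjusted p = 1.7e-07). Cst7, which encodes the protease inhibitor cystatin F, was at 20.98, 24.8 and 22.4 and 38.8, 35.7 and 38.9 CPM (0.73 ± 0.078, adjusted p = 5.1e-05). Runx2, a Runt family factor, was at 16.1, 17.8 and 15.4 and 24.5, 24.5 and 26.2 CPM (0.61 ± 0.073, adjusted p = 0.00016). The groups of these 3 genes lay far apart. Runx2 was 1 of 2 genes called higher among 25 of the TGF-β and RUNX pathway (8.0%, against 1.79% of all tested genes). When any 1 library was left out, 1 gene of that list was called higher.

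Arhgef40, a guanine nucleotide exchange factor, was at 3.63, 2.75 and 2.98 against 7.73, 6.31 and 5.51 CPM (1.07 ± 0.12, adjusted p = 0.000118), and the actin-associated Synpo at 2.61, 3.41 and 2.70 against 5.34, 7.53 and 5.77 CPM (1.09 ± 0.21, adjusted p = 0.00776). Both are scarce RNAs that were about 2-fold higher. Among the 15 largest called rises that the naming rule takes, Ccl3, Ccl4, Lilrb4a, Nrgn, Gpr34, Ephx1, Igfbp2 and Rgs1, at log2 differences of 0.73 to 1.33, each lost the call when certain single libraries were left out. Lilrb4a and Gpr34 lost it without any 1, Nrgn without any except sgCtr library 3, Ephx1 without sgCtr 1 or 3 or sgNop16 2 or 3, Igfbp2 without sgCtr 1 or 2 or sgNop16 2, and Rgs1 without sgCtr 2 or 3 or sgNop16 1, at adjusted p up to 0.174.

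The largest of the 15 was Fdx1l, a mitochondrial ferredoxin, at 5.37, 7.65 and 5.15 CPM in sgCtr and 19.5, 26.4 and 25.6 CPM in sgNop16 libraries (1.97 ± 0.33, adjusted p = 0.00304). It shares exons on the same strand with the gene model Gm38431, which also spans Raver1, a splicing coregulator. Gm38431 went the other way, at 211, 158 and 311 against 49.6, 24.6 and 40.6 CPM (-2.56 ± 0.50, adjusted p = 0.00893), and Raver1 was at 177, 211 and 61.9 against 298, 328 and 294 CPM, which was not called (adjusted p = 0.111). The counts of these overlapping genes are uncertain, since the counting could split the same reads among them. The call of Gm38431 ended without sgNop16 library 2 (0.0508) and with a robust fit (0.0943). Gm38431 and Raver1 were named after their values were seen.

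The fall with the smallest p was that of Scd2, a fatty acid desaturase. It was at 847, 865 and 827 CPM in sgCtr and 520.3, 562 and 556 CPM in sgNop16 libraries (-0.63 ± 0.031, adjusted p = 1.06e-08). Of 35 genes of cholesterol and fatty acid synthesis 5 were called lower (14.3%, against 1.53% of all tested genes) and none higher. The median was -0.08, and 29 of 35 values lay below 0. Fads2, another desaturase, was at 47.7, 48.9 and 47.4 and 24.3, 29.6 and 33.4 CPM (-0.72 ± 0.092, adjusted p = 0.000284). Srebf1, which encodes the factor SREBP1 that drives lipid synthesis genes, was at 167, 151 and 153 and 118, 132 and 121 CPM (-0.34 ± 0.050, adjusted p = 0.000917). All 3 genes were lower in every sgNop16 library.

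Fdps, an enzyme of the mevalonate pathway, was also among the 5 called, and any 1 library left out brought the count from 5 to 3. Abcg1, a transporter that exports sterols and is not on the list, was at 35.4, 32.5 and 31.3 CPM in sgCtr and 21.3, 21.7 and 21.4 CPM in sgNop16 libraries (-0.62 ± 0.050, adjusted p = 3.61e-06). Its sgNop16 libraries were nearly equal and well below the sgCtr range.

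Of 13 immunoglobulin chain genes 5 were called lower (38.5%, against 1.53% of all tested genes) and none higher. The median was -0.20. The μ heavy chain gene Ighm was at 2542, 2516 and 2532 CPM in sgCtr and 2182, 2201 and 2229 CPM in sgNop16 libraries (-0.20 ± 0.018, adjusted p = 1.1e-05), and the α gene Igha at 968, 942 and 961 and 882, 857 and 882 CPM (-0.13 ± 0.022, adjusted p = 0.00284). These abundant RNAs fell by small steps. The scarcer Ighg3, at 10.9, 11.5 and 10.2 and 5.60, 5.45 and 6.83 CPM (-0.87 ± 0.12, adjusted p = 0.000582), and the λ chain gene Iglc3, at 20.2, 22.97 and 20.04 and 11.4, 13.3 and 12.4 CPM (-0.77 ± 0.099, adjusted p = 0.000315), were lower too. Reads of constant genes that resemble each other could be split among them.

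Jchain, which joins IgM and IgA into polymers, was lower by -0.55 ± 0.14 (adjusted p = 0.0358), but this call was lost without any library except sgCtr library 3 (adjusted p up to 0.169). The other 5 heavy chain constant genes were not called. Of 48 genes of the switch recombination machinery 2 were called higher (4.17%) and 1 lower (2.08%), against 1.79% and 1.53% of all tested genes. Without sgNop16 library 3, 2 were called lower. The gene called lower with all libraries was Parp1. Parp1, a sensor of DNA breaks, was at 913, 904 and 929.6 against 846, 824 and 818 CPM (-0.14 ± 0.024, adjusted p = 0.00321).

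Genes of the plasma cell programme were called lower in 6 of 19 cases (31.6%, against 1.53% of all tested genes) and higher in none. The median was -0.07. Xbp1, the factor that expands the secretory pathway, was at 145, 143 and 146 CPM in sgCtr and 116, 119.5 and 119 CPM in sgNop16 libraries (-0.29 ± 0.032, adjusted p = 7.17e-05). Creb3l2, a membrane-bound factor of the same pathway, was at 20.4, 20.7 and 19.98 and 14.2, 14.9 and 15.4 CPM (-0.45 ± 0.068, adjusted p = 0.00112). Both were lower in all sgNop16 libraries. The others called were Jchain, Mzb1, Pdia4 and Glcci1, and 3 of the 6 calls were left without sgCtr library 1 or 2 or any sgNop16 library. Among 24 genes of ER folding, 1 was called lower (4.17%, against 1.53% of all tested genes). This was the ER degradation factor Sel1l, at 314, 325 and 309 against 274, 279 and 267 CPM (-0.21 ± 0.033, adjusted p = 0.00184).

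B cell transcription regulators had 4 of 33 members called lower (12.1%) and 2 higher (6.06%), against 1.53% and 1.79% of all tested genes. Ets1, which restrains plasma cell formation, was at 349, 359.9 and 357 CPM in sgCtr and 287, 294 and 293 CPM in sgNop16 libraries (-0.29 ± 0.032, adjusted p = 7.84e-05). Myb was at 133, 129 and 135 and 116, 109 and 118 CPM (-0.21 ± 0.040, adjusted p = 0.00669), and the antiproliferative Btg2 differed by -0.30 ± 0.059 (adjusted p = 0.00884). These 3 fell by small steps. Irf8 was higher (0.20 ± 0.043, adjusted p = 0.0181), but not called without sgCtr library 1 or 3 or sgNop16 library 2 or 3 (up to 0.0748). In those fits no gene of the list was called higher, and 1 was without sgCtr library 2 or sgNop16 library 1. Id2, an inhibitor of E proteins, was at 5.99, 6.25 and 6.57 and 4.57, 4.78 and 4.69 CPM (-0.42 ± 0.082, adjusted p = 0.00866), but was not called with counts divided by 4 (0.0969), with only the 6 libraries compared in the fit (0.161) or with a replicate block in that fit (0.229).

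Further falls were seen in genes of mixed roles. Psip1, a chromatin reader also known as LEDGF, was at 462, 454 and 442 CPM in sgCtr and 339.6, 330.4 and 349.7 CPM in sgNop16 libraries (-0.41 ± 0.031, adjusted p = 1.5e-06). Wipf3, a WASP-interacting protein, was at 136, 132 and 134 and 88.6, 93.8 and 88.8 CPM (-0.57 ± 0.046, adjusted p = 3.61e-06), and the tetraspanin Tspan14 at 50.9, 54.1 and 56.2 and 37.7, 38.9 and 41.6 CPM (-0.45 ± 0.053, adjusted p = 0.00015). Each lay lower in all 3 sgNop16 libraries. Exons of Psip1 overlap Snapc3 and those of Wipf3 overlap Scrn1, both on the other strand.

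Ccpg1, a receptor for the autophagy of the ER, was at 9.87, 10.8 and 10.4 CPM in sgCtr and 5.99, 4.66 and 4.93 CPM in sgNop16 libraries (-0.99 ± 0.14, adjusted p = 0.000928), about 2-fold lower. Ppp1r3b, which targets a phosphatase to glycogen, was at 32.9, 33.3 and 34.5 and 20.6, 20.8 and 21.99 CPM (-0.67 ± 0.095, adjusted p = 0.000734). The homeobox gene Cux2 was at 25.4, 21.2 and 22.1 and 16.8, 14.8 and 12.7 CPM (-0.63 ± 0.10, adjusted p = 0.00249), and Vsir, which encodes the checkpoint protein VISTA, at 4.63, 6.11 and 6.57 and 2.98, 4.09 and 2.68 CPM (-0.84 ± 0.14, adjusted p = 0.00321; 0.0602 with only the 6 libraries compared in the fit). Of the 15 largest called falls of the naming rule, Pak6, Bhlha15, Fndc9, Pygm, Trio and Pgbd5, at -0.61 to -0.87, were not called without certain single libraries. Bhlha15 and Trio lost the call without any 1, Pygm without any except sgNop16 library 1, Pak6 without sgCtr 1 or 3 or sgNop16 1 or 3, Fndc9 without sgCtr 1 or 2 or sgNop16 2 or 3, and Pgbd5 without sgCtr 3 or sgNop16 2 or 3, at adjusted p up to 0.172.

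The listed genes that build ribosomes, where NOP16 works, differed little between the guides. None of 50 large subunit assembly factors, 46 small subunit processome factors or 13 genes of RNA polymerase I was called, and the list medians were -0.01, 0.04 and 0.03. That of the large subunit factors changed sign with library totals. Every value in these lists lay between -0.14 and 0.18. Above 0 lay 21 of the 50, 33 of the 46 and 9 of the 13 values. The smallest p among the processome factors belonged to Pdcd11 at 0.12 ± 0.032 (adjusted p = 0.0603) and Rrp12 at 0.18 ± 0.049 (adjusted p = 0.0647). Among the RNA polymerase I genes it belonged to the factor Ubtf at -0.09 ± 0.027 (adjusted p = 0.0831) and the subunit Polr1a at 0.10 ± 0.031 (adjusted p = 0.0875), which lay on opposite sides of 0. Pdcd11, Rrp12 and Polr1a were called with library totals, the stricter filter or DESeq2, and Ubtf with DESeq2. Pdcd11 and Rrp12 were also called with counts divided by 4 or a robust fit, and Rrp12 with only the 6 libraries compared in the fit.

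Of 22 snoRNP and nucleolar proteins 1, Ruvbl1, was called lower (4.5%, against 1.53% of all tested genes). It was at 139, 137 and 137 CPM in sgCtr and 115, 125 and 123 CPM in sgNop16 libraries (-0.19 ± 0.038, adjusted p = 0.0109). Its call ended without sgCtr library 1 or sgNop16 library 1 (adjusted p up to 0.0698), while 3 members were called lower without sgNop16 library 3. Of 80 ribosomal protein genes 5 were called lower and none higher, with a median of -0.04 (-0.025 with library totals) and 64 values below 0. These calls make 6.25% of the list, against 1.53% of all tested genes. Among the abundant genes, at 100 CPM and over, 150 of 2477 were called lower, so the count is not particular to ribosomal proteins. Rps16 had the largest called change, at 724, 703 and 694 against 664, 649 and 646 CPM (-0.11 ± 0.022, adjusted p = 0.00866). No ribosomal protein gene was called without sgCtr library 1, where Rps16 had an adjusted p of 0.0573, 2 were called without sgCtr library 3 or sgNop16 library 1 or 2, and 5 or 6 without the others.

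Cell growth and stress genes were called in both directions. Of 28 p53 targets 1 was called higher, Pmaip1, and 3 lower, Psrc1, Btg2 and Trp53inp1, with a median of -0.03. Psrc1, a microtubule-associated protein, was at 39.1, 37.3 and 38.5 CPM in sgCtr and 30.7, 29.1 and 28.8 CPM in sgNop16 libraries (-0.38 ± 0.050, adjusted p = 0.000433). None of 11 genes of the MYC network and 4 of 30 MYC targets were called, 2 each way. Of these, Odc1, the first enzyme of polyamine synthesis, was at 965, 979.5 and 989 against 1100.3, 1102 and 1085 CPM (0.16 ± 0.030, adjusted p = 0.00532) and the cyclin Ccnd2 at 38.3, 35.3 and 34.3 against 42.3, 45.9 and 43.1 CPM (0.28 ± 0.048, adjusted p = 0.00324). None of 23 glycolysis genes or 13 PRC2 and H3K27 demethylase genes was called, and the integrated stress response had 2 of 24 called higher and 3 lower. These calls make 8.33% and 12.5% of that list, 3.57% and 10.7% of the p53 targets and 6.67% each way of the MYC targets, against 1.79% and 1.53% of all tested genes. Without any 1 library at most 1 stress response gene was called higher, and none was called lower without sgCtr library 2 or 3 or sgNop16 library 1. The 2 MYC targets called lower were not called without sgCtr library 1 or 3 or sgNop16 library 1.

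Genes of S phase and mitosis were called lower and none higher. Of 39 S phase genes 7 were called lower (17.9%), with a median of -0.07. Of 30 mitosis genes 4 were called lower (13.3%), with a median of -0.04. These shares stand against 1.53% of all tested genes. Among the abundant genes, at 100 CPM and over, 150 of 2477 were called lower. Several of the called genes, Mki67 and Slbp among them, lay at such levels. Of 15 G1 cyclins, kinases and brakes 1 was called each way, Ccnd2 higher and Cdk4 lower, with a median of 0.01. This is 6.67% each way, against 1.79% and 1.53% of all tested genes. Cdk4 was not called without sgCtr library 1 or 3 or sgNop16 library 1. The factor E2f2, which drives S phase genes, was at 54.8, 54.4 and 57.9 CPM in sgCtr and 39.7, 44.1 and 39.7 CPM in sgNop16 libraries (-0.44 ± 0.074, adjusted p = 0.00321). Leaving out any 1 library left 2 or 3 of the 7 S phase calls and at most 1 of the 4 mitosis calls, where that of the proliferation marker Mki67 (-0.13 ± 0.030) had adjusted p up to 0.0917. All 13 mitochondrially encoded genes had values below 0, from -0.23 to -0.02, and 4 were called lower (30.8%, against 1.53% of all tested genes). Of these mt-Nd1, a subunit of complex I, was at 3516, 3376 and 3341 against 3142, 2964 and 3064 CPM (-0.16 ± 0.032, adjusted p = 0.00992). No mitochondrial gene was called without sgCtr library 1 or sgNop16 library 2 (mt-Nd1 at up to 0.0633), 2 were without sgCtr library 2 or sgNop16 library 3, and 3 or 4 were without the others.

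**Figure D3:**
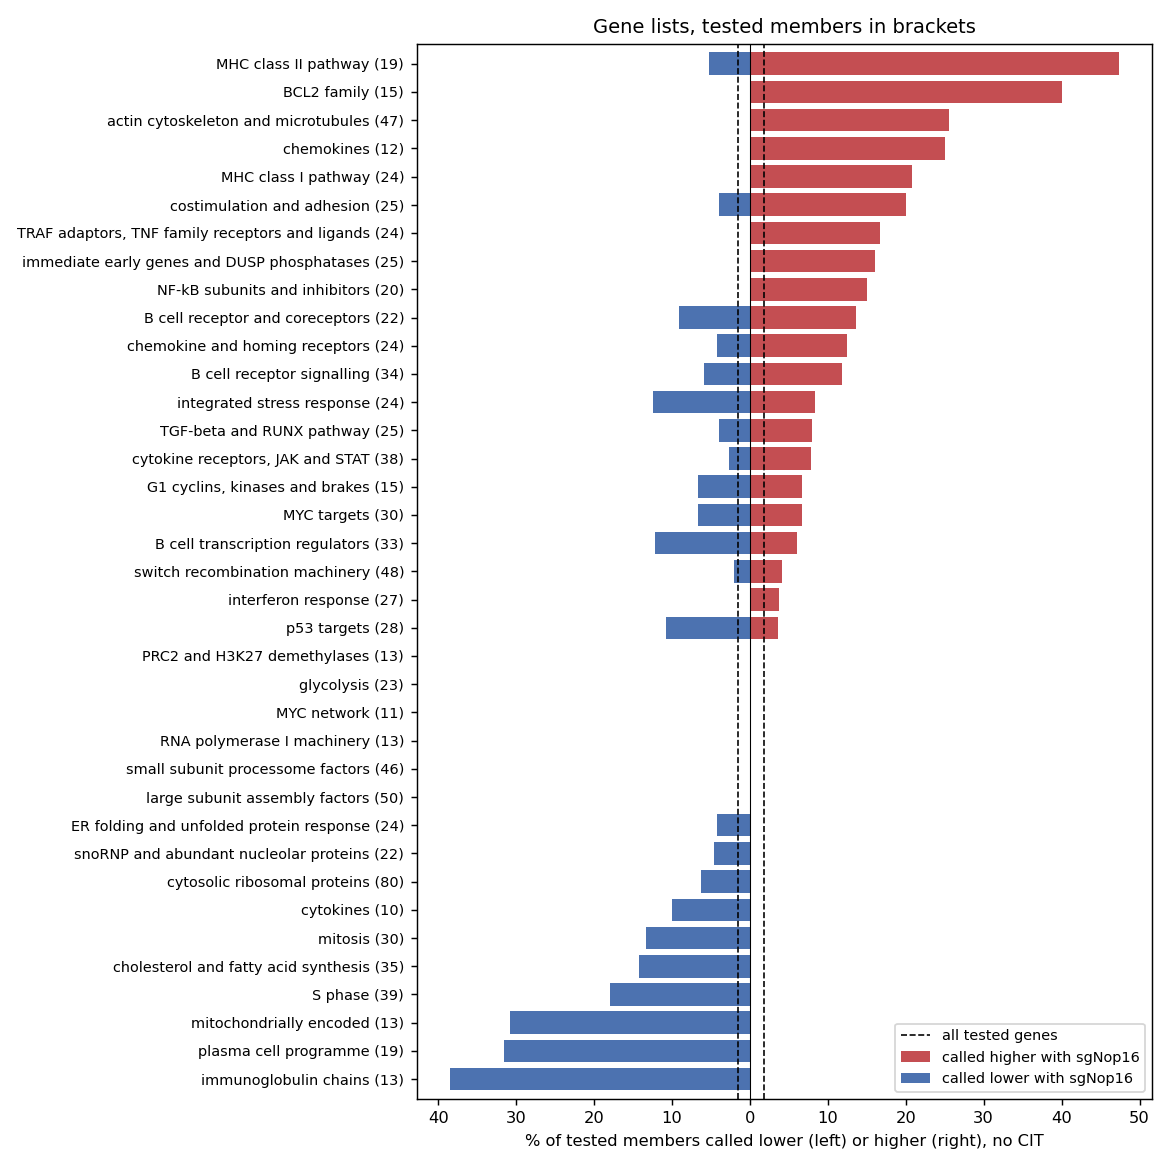
Share of tested members called lower (blue, left) and higher (red, right) with the Nop16 guide without CIT in each of 37 gene lists, with the number of tested members in brackets; dashed lines mark the shares of all tested genes, 1.53% lower and 1.79% higher. MHC class II and BCL2 family genes hold the longest bars to the right and immunoglobulin chains the longest to the left.

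The same guides were compared in the libraries made after CIT, which share no library with those above, though they may share transfections. With CIT 1034 genes (6.16%) were called, 569 higher (3.39%) and 465 lower (2.77%). Of the 301 genes called higher without CIT, 220 (73.1%) had the same sign with CIT, and of the 257 called lower 192 (74.7%), against 54.8% of all tested genes. In the same direction 88 genes were called higher in both states, which is 29.2% of those called higher without CIT and 15.5% of those with it. Called lower in both were 81 genes, or 31.5% and 17.4%. In the opposite direction 17 and 6 were called. The median difference of the called higher genes fell from 0.31 without CIT to 0.11 with it, and that of the called lower genes moved from -0.20 to -0.08. The genes were chosen by their values without CIT, so these medians are a description.

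The difference between the 2 guide effects was tested as an interaction and called for 358 genes (2.13%), of which 210 (1.25%) had a lower and 148 (0.881%) a higher guide difference with CIT. Among them were 93 of the 301 called higher and 53 of the 257 called lower without CIT. The interaction holds the difference without CIT by which these genes were chosen. Genes chosen so are more apt to be called in it, and their counts are a description only. Genes of the MHC class II pathway differed between the states, with an interaction called for 9 of 19, and with CIT none was called higher and 3 lower. With CIT the guide difference of H2-Eb1 was 0.02 ± 0.027, of H2-Aa 0.01 ± 0.020, of H2-Ab1 0.03 ± 0.033 and of Cd74 -0.02 ± 0.018. These values lay close to 0, and the interaction of H2-Eb1 was -0.39 ± 0.038 (adjusted p = 6.9e-05). The same was seen for Nlrc5, at 0.02 ± 0.042 with CIT and an interaction of -0.45 ± 0.061 (adjusted p = 0.00103).

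Ccl22 remained higher with the Nop16 guide after CIT by 0.46 ± 0.025, a smaller step than without (-0.56 ± 0.035, adjusted p = 7.04e-07). Prickle1 turned from a rise to a fall of -0.21 ± 0.044 (interaction -0.95 ± 0.063, adjusted p = 7.04e-07). In the BCL2 family Bcl2a1d kept a smaller rise (0.26 ± 0.042, interaction adjusted p = 0.00145). Pmaip1 was at 0.49 ± 0.050, with an interaction of -0.09 ± 0.070 that was not called (adjusted p = 0.667), and Bcl2l11 at -0.19 ± 0.057 with an interaction of -0.52 ± 0.082 (adjusted p = 0.00337). These members thus did not move as 1 group between the states.

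Among the genes that were lower, Fads2 and Ccpg1 showed no called difference with CIT (-0.05 ± 0.092 and -0.02 ± 0.14), with called interactions of 0.68 ± 0.13 and 0.98 ± 0.20. Scd2 was lower in both states (-0.36 ± 0.030 with CIT), with an interaction of 0.27 ± 0.043 (adjusted p = 0.00353). Myb turned from lower to higher (0.25 ± 0.040 with CIT, interaction 0.46 ± 0.057, adjusted p = 0.000406). Ets1, Iglc3 and Tbc1d4 had like differences in both states, at -0.33 ± 0.032, -0.71 ± 0.098 and 1.04 ± 0.090 with CIT, with interactions of -0.04 ± 0.046, 0.06 ± 0.14 and -0.18 ± 0.14 that were not called. The Nop16 difference with CIT was -0.23 ± 0.043, with an interaction of 0.08 ± 0.061 (adjusted p = 0.645).

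**Figure D4:**
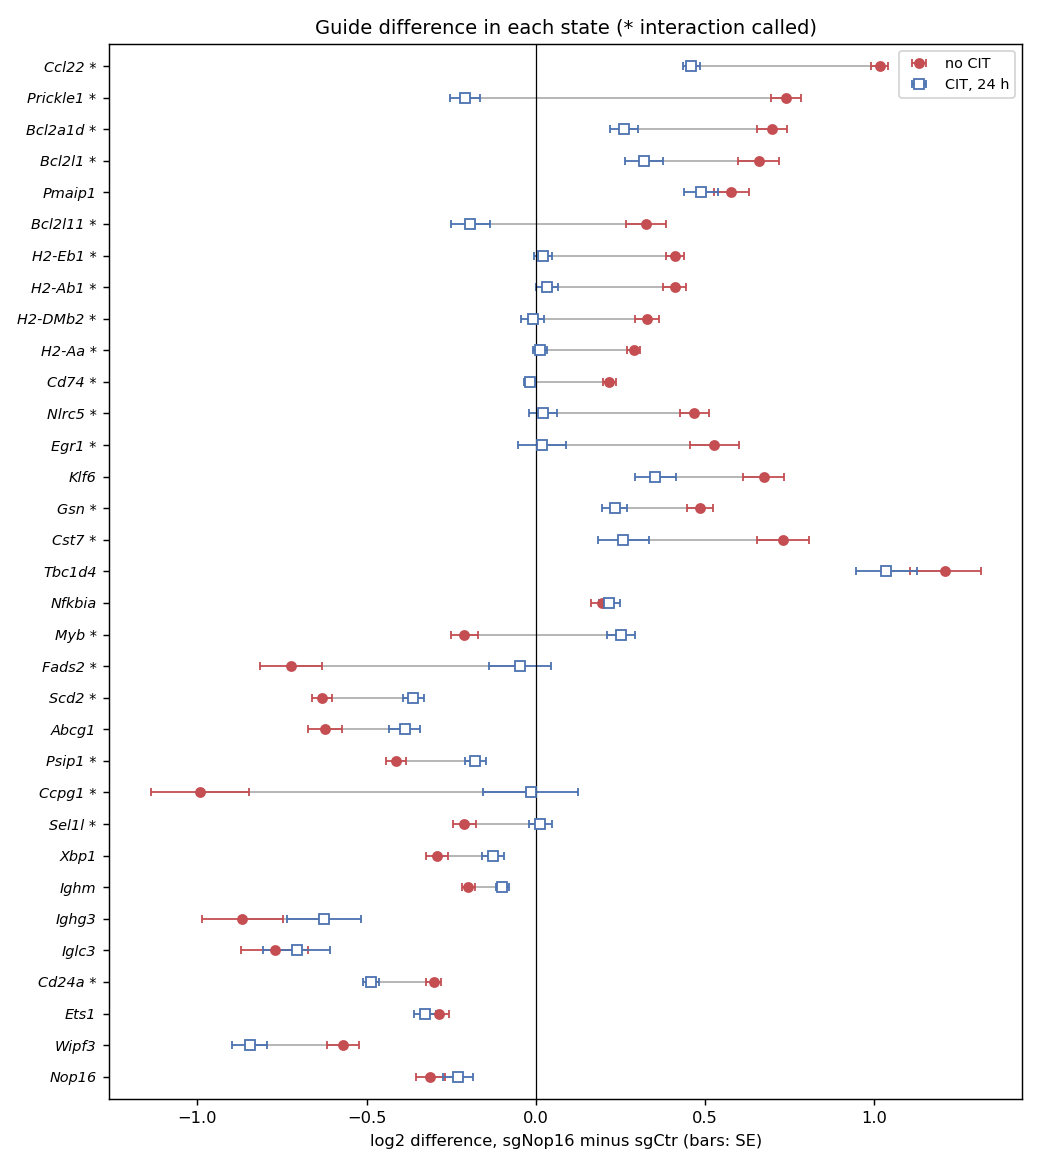
Log2 difference between sgNop16 and sgCtr cells for 33 genes without CIT (filled circles) and after 24 h of CIT (open squares), with bars for the SE, and a star where the interaction was called. The MHC class II genes lie between 0.22 and 0.41 without CIT and near 0 with it, and Nop16 is lower in both states.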

How the data were processed

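RNA from 12 libraries was sequenced after a directional kit, per the labels' protocols. The authors deposited 1 table of estimated counts per Ensembl gene, as whole numbers not scaled to library size. Per the submitters' processing notes, which state no roles, the tools were HISAT2 2.2.1 and StringTie 2.2.1 and the build was GRCm39. No source used here gives the annotation release or the strand setting, so reads of genes on opposite strands may be mixed. Exon overlaps were looked up in GENCODE M21 on GRCm38.

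From the deposited counts, 16794 genes passed filterByExpr, were scaled by TMM (factors 0.985 to 1.001) and were tested with edgeR 4.0.16 (R 4.3.3, limma 3.58.1) by its quasi-likelihood test with 1 mean for each of 4 groups. All 12 libraries share the estimate of spread. The p-values were adjusted by Benjamini-Hochberg over all genes, at 0.05. The fit was tested on simulated data. Replicates of the 6 unstimulated libraries differed by more than sampling noise, with a mean chi-square of 2.51 to 3.25 per gene. Promoter windows came from RefSeq on GRCm38.p6, and 10293 tested genes had one.

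Genes were named by a rule: Nop16, the constant genes of the heavy chains, the 15 largest called changes each way at 5 CPM or more without overlap of groups, the 10 smallest p each way, up to 3 called members of each list each way or the 2 smallest p where none was called, and the 5 largest called interactions each way. The other list members, Bcl2a1a, Bcl2a1b, Bcl2l11, Adgre1, Gm38431 and Raver1 were named after their values were seen, and not every gene that the rule takes is described; some are not reported here. The members and gene lists were chosen with earlier results of these data known. Alternatives were DESeq2 1.42.0, its size factors, library totals, other filters, counts divided by 4, only the 6 libraries compared, a replicate block, a test against 1.5-fold, a robust fit, 1 library left out in turn and a promoter window of 250 bases.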

Additional observations from a re-analysis of the deposited data

Results flagged for a closer look

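For 37 genes named here the difference between the guides was not the same in the 2 states, by the interaction term of the fit over all 12 libraries with an adjusted p under 0.05 in edgeR's quasi-likelihood test. Values are the log2 guide difference with CIT minus that without CIT, for 3 libraries in each of 4 groups. A negative value means that the sgNop16 libraries lay lower against sgCtr after CIT than without it. Many of these genes were named for their values without CIT, which the interaction holds, so the count of 37 is a description only.

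Among genes of antigen presentation the values were H2-Eb1 at -0.39, H2-Ab1 at -0.38, H2-DMb2 at -0.34, H2-Aa at -0.28, Cd74 at -0.23 and Nlrc5 at -0.45. Among chemokine, BCL2 family and immediate early genes they were Ccl22 at -0.56, Bcl2a1d at -0.44, Bcl2l1 at -0.34, Bcl2l11 at -0.52 and Egr1 at -0.51. Surface and signalling genes stood as follows: Cd24a at -0.18, Cd72 at -0.27, Ms4a1 at -0.41, Csf2rb at -0.29, Itgb1 at 0.17 and Ipcef1 at -1.14.

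Among regulators of transcription they were Irf8 at -0.52, Psip1 at 0.23, Myb at 0.46, Id2 at 0.51, Zfp811 at -1.14 and Ruvbl1 at 0.26. Lipid and ER genes had the values Scd2 at 0.27, Fads2 at 0.68, Abca5 at -1.36, Ccpg1 at 0.98 and Sel1l at 0.23. The remaining values were Prickle1 at -0.95, Gsn at -0.25, Cst7 at -0.47, Arhgef40 at -0.66, Psrc1 at 0.48 and Pgbd5 at 0.76.

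The 3 values of greatest size belong to genes whose levels are uncertain. Adgre1, at -6.40, had 0 counts in the sgCtr libraries without CIT, so the size of its fitted value depends on the prior count and is no bound. Gm38431, at 4.25, and Fdx1l, at -2.41, share exons. Abca5, Zfp811 and Ipcef1 were also called higher without CIT, by 2.09 ± 0.27, 1.06 ± 0.19 and 0.75 ± 0.16. Zfp811 is a zinc finger gene, and Ipcef1 lost its call without sgCtr library 2 or 3 or sgNop16 library 1 (adjusted p up to 0.0714).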

How the results depend on the processing

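Of 109 genes given values, 104 were called, of which 62 were called in every setting run for single genes and 42 lost the call in at least 1. None of these values reversed its direction. The count of 558 genes stayed within 1.5 times with library totals, DESeq2 size factors, no filter or a stricter filter, counts divided by 4, only the 6 unstimulated libraries in the fit, or the robust fit added after seeing the data. It moved to 927 with DESeq2, to 2 when tested against a 1.5-fold change, and to 352 to 389 when 1 library was left out, with 366 without sgNop16 library 2 and 352 without sgNop16 library 3. In the fits that left out 1 library the spread is shared over groups. With CIT, 617 to 723 genes were called in place of 1034 without 1 library, with the highest count without sgNop16_CIT library 1. The interaction count was 207 with no filter, 767 with DESeq2 and 215 to 277 in place of 358 without 1 library, with the lowest 5 without sgNop16_no library 1, sgCtr_CIT library 2 or 3 or sgNop16_CIT library 2 or 3. With only the 250 bases before the start, the shares of all tested genes with a promoter entry were 10.5% for NF-κB, 40.3% for CCAAT and 5.54% for STAT.

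Same-numbered libraries deviated from their group means with correlations of 0.11, -0.12 and -0.09 without CIT and 0.01, 0.20 and 0.19 with it, so the numbers were not taken as pairs. Without CIT the largest correlation was 0.25, between sgCtr library 2 and sgNop16 library 3. With the replicate block 477 genes were called without CIT, 920 with CIT and 278 for the interaction. With the replicate block in a fit of only the groups compared, added after seeing the data, 309 and 666 were called. In that fit Cd40, Psmb9, Csf2rb, Btg2, Ccnd2, Samd9l, Abca5 and Zfp811 were not called, at adjusted p of 0.0505 to 0.10, though each kept its call when any 1 library was left out.

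Scarce genes were called least often. At under 1 CPM 0.57% of genes were called, against 10.3% at 100 CPM and over. In data simulated from these libraries, over 16364 genes, 70.8% of 2-fold changes and 52.0% of 1.5-fold changes were called. Of the calls in the simulated data 1.64% were false. These shares were not split by level, so they do not show how scarce genes fare. They describe simulated counts only, and the share of false calls in the real libraries was not tested. Counting intervals are not given, since 1 fragment may stand for several counts.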
